A study of Mus musculus with 2 samples.

Results

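The genes described here are 151 neighbouring rows, numbered R06100 to R06250, of the 34099 rows in a count matrix of mouse epidermal cells. The rows carry no gene names in the matrices, so each gene is given by its place in the gene order of the matrix, written with an R, such as R06163. The window was chosen from measured values, because it surrounds row R06163. That row had the largest rise in the *Supt6*-KO library by the log2 ratio given below, among rows that reached a minimum level. The levels of row R06163 are therefore a description, and the rows beside it have no rule of their own other than their position.

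Single-cell RNA sequencing (scRNA-Seq) was performed on epidermis separated from dorsal skin, with 1 control library and 1 *Supt6*-KO library, both collected on day 5 after the final injection. Per the labels, the control mouse had the genotype WT and received corn oil, and the other mouse had the genotype Supt6 knockdown, induced with tamoxifen. In the study's methods, *Supt6*-KO mice are K14-CreERT; *Supt6* fl/fl, so that tamoxifen activates Cre in keratinocytes that express keratin 14, whereas the corn oil controls carry *Supt6* fl/fl. The control genotype is thus uncertain here, no age of these mice was given in the labels, and genotype, compound, mouse and library changed together and cannot be told apart. With 1 library per group there is no replicate check, and no test between the groups was possible. Neither the *Supt6* level nor the markers that would check the tissue label were analysed here, because both need gene names.

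*Supt6* encodes SPT6, a histone chaperone that binds elongating RNA polymerase II and helps to restore nucleosomes behind it. The epidermis is a layered tissue in which basal keratinocytes divide and their daughters move outward while they differentiate. Genes of a family that arose by duplication often lie side by side on a chromosome and can be switched on together in such cells, which is why runs of neighbouring rows were examined. Whether the rows of this window belong to such a family was not tested, and their order in the matrix gives no distance between genes.

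Cells were barcodes with at least 500 detected rows, which were 8717 of 9085 control barcodes and 11829 of 12971 *Supt6*-KO barcodes. These cells held 104134125 and 115742647 unique molecular identifiers (UMIs), each of which stands for 1 captured RNA molecule, with medians of 10387 and 8631 per cell. The libraries shared 23 barcode sequences, and without those cells the same window rows passed the size rule described below. Levels are UMIs summed over the cells of a library and scaled to counts per 1000000 (CPM), and they are not divided by gene length because the assay counts transcript 3' ends. Brackets give 95% intervals for counting error alone, and the variation between mice is in none of them.

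Most rows of the window had few or no UMIs at this depth. In 20 rows no UMI was found in either library, which allows up to 3 UMIs per library. No UMI was found for 33 rows in control and for 24 in *Supt6*-KO. The 13 rows seen only in *Supt6*-KO had at most 9 UMIs each, and the 4 seen only in control had at most 2, so these rows give no usable difference. In all, 107 rows stayed under 20 CPM in both libraries, 87 of them with at least 1 UMI.

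The other 44 rows reached 20 CPM in at least 1 library, 39 of them in control and 40 in *Supt6*-KO. They made up 29.1% of the window, and the same minimum was reached by 17.6% of all rows of the matrix. Just outside the window, rows R06099 and R06251 were low in both libraries, at 3.27 and 1.22 CPM in control and at 3.30 and 0.786 CPM in *Supt6*-KO. The last row inside, row R06250, had a control level of 73.8 CPM and a *Supt6*-KO level of 65.0 CPM, and row R06100 had 0.480 and 0.0864 CPM.

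**Figure D1:**
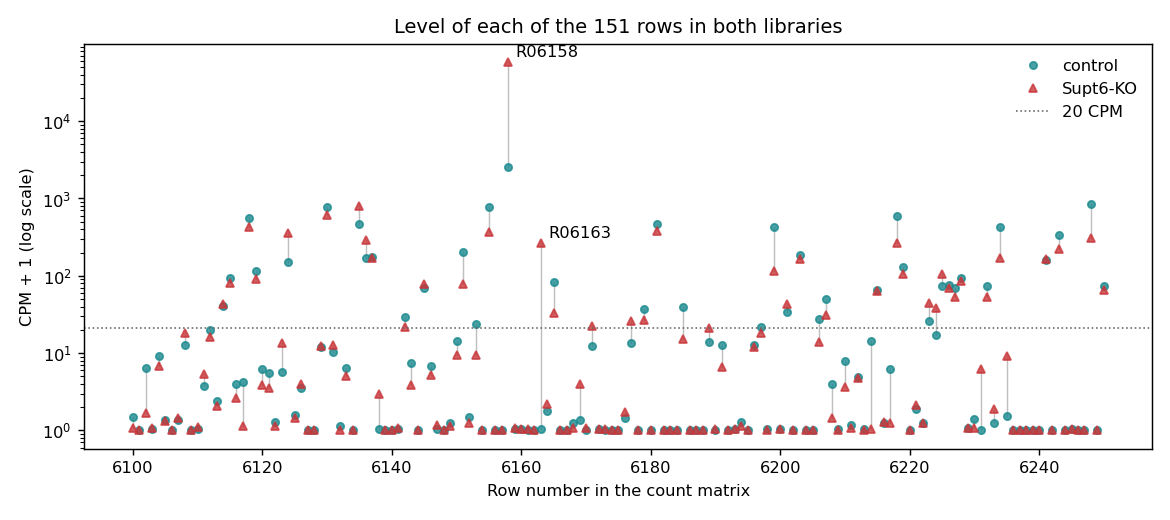
Level of each of the 151 rows, as CPM + 1 on a log axis, against row number, with control as circles, *Supt6*-KO as triangles and a grey line between the values of a row. Most rows lie below the dotted line at 20 CPM or have similar levels in both libraries, and rows R06158 and R06163 have the longest lines.

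Taken as a whole, the window held 1.08% of all control UMIs and 6.41% of all *Supt6*-KO UMIs. The rise came from a single row. Row R06158 took 0.252% of the control UMIs and 5.76% of the *Supt6*-KO UMIs, or 23.4% and 89.8% of the UMIs of the window. Without row R06158 the window held 0.829% in control and 0.692% in *Supt6*-KO, which is a slightly smaller share in the knockout.

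The size rule asked for a difference of at least 2-fold, with 20 CPM or more in the higher library. In the window 5 rows were higher in *Supt6*-KO, which is 11.4% of the 44 rows, beside 5.11% of the 5990 rows of the matrix that reached the minimum. These include row R06163, around which the window was chosen for its rise, here and under each scaling below. In the other direction 10 rows were lower, which is 22.7%, beside 16.1% in the matrix. The median log2 ratio of *Supt6*-KO over control, on log2(CPM + 1), was −0.25 over the 44 rows and −0.31 over the matrix. The typical row of the window thus moved much like the typical row of the matrix. With trimmed mean of M-values (TMM) scaling these medians were −0.083 and −0.15, and 6 of 43 window rows were higher and 8 lower (14% and 18.6%), beside 442 and 737 of 5971 rows in the matrix (7.40% and 12.3%). With totals that omitted rows at 1000 CPM or more, 10 of 52 window rows were higher and 8 lower (19.2% and 15.4%), beside 735 and 742 of 7553 rows in the matrix (9.73% and 9.82%), so the split between higher and lower rows moved with the scaling.

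**Figure D2:**
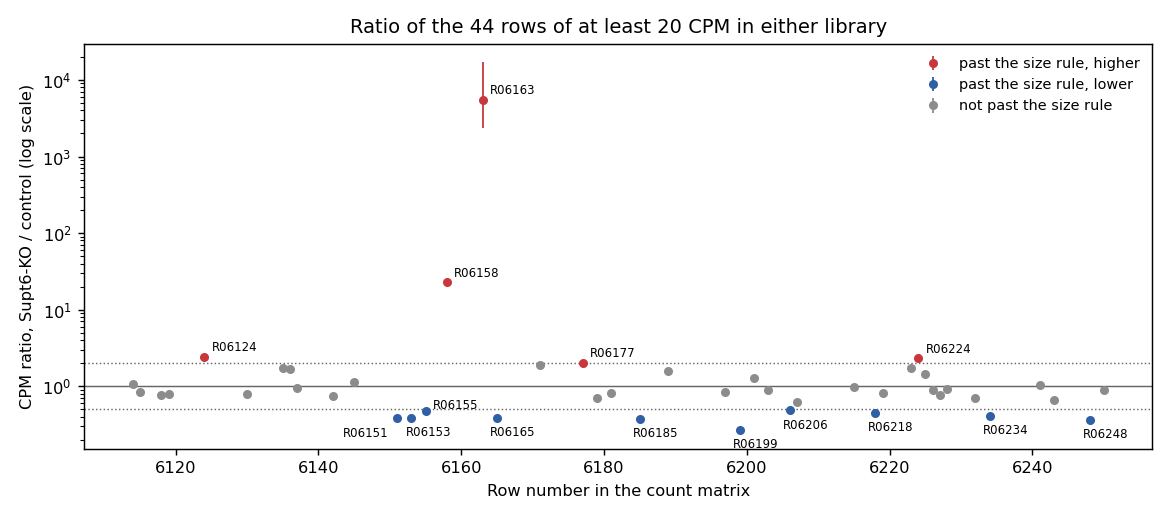
CPM ratio of *Supt6*-KO over control on a log axis for the 44 rows of at least 20 CPM in either library, against row number, with 95% counting intervals as vertical bars that are mostly smaller than the points. Dotted lines mark 2-fold in each direction, and the 5 higher and 10 lower rows past the size rule are labelled.

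Row R06163, the row that defined the window, was close to absent from control cells. It had 5 UMIs in 4 of 8717 control cells, or 0.0480 CPM (0.0156 to 0.112). In *Supt6*-KO it had 30629 UMIs, or 265 CPM (262 to 268). The ratio was 5511-fold (2361 to 16975), an interval widened by the 5 control UMIs. Ranks were taken by the log2 ratio defined above and not by this fold. Row R06163 ranked first of the 5990 rows, which the choice of the row had set.

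Row R06158, 5 rows before it, rose far more in absolute terms. Its level was 2523 CPM (2514 to 2533) in control and 57616 CPM (57573 to 57660) in *Supt6*-KO, a 22.8-fold rise (22.7 to 22.9). By UMIs it was the row of rank 50 in the control library and of rank 1 in the *Supt6*-KO library. Its log2 ratio, on log2(CPM + 1), ranked 14th of 5990. Between rows R06158 and R06163 lie 4 rows, none of which reached 20 CPM in either library.

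The remaining rows that passed the rule upward did so by little more than 2-fold. Row R06124 rose from 148 to 358 CPM, or 2.42-fold (2.38 to 2.47). Row R06224 rose from 16.2 to 37.3 CPM, or 2.30-fold (2.18 to 2.44). Row R06177 rose from 12.4 to 25 CPM, or 2.02-fold (1.89 to 2.16), an interval that includes 2, and it no longer passed (1.98-fold) after the top 8% of doublet scores were dropped. These rows lie 39 rows before, 61 rows after and 14 rows after row R06163.

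The 10 lower rows differed by 2.08-fold to 3.71-fold, and none by 4-fold. Row R06199 fell most, by 3.71-fold (3.64 to 3.79), with 422 CPM in control, beside 114 CPM in *Supt6*-KO. Row R06248, the most abundant of these in control, fell from 850 to 307 CPM, or 2.77-fold (2.73 to 2.80). Row R06185 was 2.70-fold lower (2.55 to 2.86), at 38.3 and 14.2 CPM.

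Another group of lower rows lay close to rows R06158 and R06163. Row R06151 fell from 204 to 77.1 CPM, or 2.65-fold (2.58 to 2.71). Row R06153 fell from 22.5 to 8.54 CPM, or 2.63-fold (2.44 to 2.84). Row R06165, 2 rows after row R06163, fell from 82.7 to 32.1 CPM, or 2.58-fold (2.48 to 2.68). Row R06155, the lower row nearest to R06158, fell less, from 770 to 362 CPM (2.12-fold, 2.10 to 2.15).

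The smallest falls past the rule were those most open to the scaling. Row R06206 fell from 26.7 to 12.8 CPM (2.08-fold, 1.95 to 2.22). Neither R06155 nor R06206 passed with TMM scaling, and row R06206 also did not pass when row R06158 was left out of the totals. Row R06218 was 2.27-fold lower (2.23 to 2.30), at 599 and 264 CPM, but like rows R06155 and R06206 it did not pass with totals that omitted rows at 1000 CPM or more. Row R06234, at 423 and 171 CPM and 2.47-fold lower (2.43 to 2.51), passed under each of these scalings.

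The 29 other rows of at least 20 CPM did not pass, with log2 ratios from −0.69 to 0.85. Among them were 2 of the 5 most abundant rows of the window. Row R06130 had 774 CPM in control, beside 603 CPM in *Supt6*-KO, which was 1.28-fold lower (1.27 to 1.30). Row R06135 had 461 and 794 CPM, which was 1.73-fold higher (1.71 to 1.74) and became 2.08-fold with totals that omitted rows at 1000 CPM or more. The row nearest to the rule from outside was row R06171, at 11.3 and 21.1 CPM, or 1.88-fold.

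Rows under 20 CPM were described only where they had at least 200 UMIs over both libraries, which 31 did. Of these, 4 were at least 4-fold higher in *Supt6*-KO (rows R06138, R06169, R06231 and R06235) and 5 were at least 4-fold lower (rows R06102, R06117, R06208, R06214 and R06217). These are 12.9% and 16.1% of the 31 rows, beside 3.3% and 5.52% of the 6235 rows of the matrix with the same low level and at least 200 UMIs. The largest fall among these, picked after the values were seen, was that of row R06214, which had 1394 UMIs in 481 control cells and 6 UMIs in *Supt6*-KO and was 258-fold lower (118 to 705). Row R06117 was 24.5-fold lower (14.6 to 44.2), at 3.17 and 0.130 CPM, and row R06217 was 22.7-fold lower (15.4 to 34.7), at 5.29 and 0.233 CPM. Row R06117 was found in 145 control cells and row R06217 in 323. The 1% of control cells with the most UMIs of a row held 49.4% for row R06214, 82.4% for row R06117 and 50.8% for row R06217. Rows R06214 and R06217 thus lie close to each other on either side of rows R06215 and R06216, and row R06215 itself had 64.8 CPM in control, beside 63.0 CPM in *Supt6*-KO.

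Row R06231 was looked at cell by cell after its value was seen, and showed how few cells can set the level of a low row. It had 1 UMI in control and 608 UMIs in *Supt6*-KO, a ratio of 547-fold with an interval of 97.8 to 21641. In *Supt6*-KO it was found in 23 cells, of which 20 had 1 UMI each and 3 held 588 UMIs, or 96.7%. Those 3 cells had 332, 201 and 55 UMIs of row R06231, all lay in the same cluster, and all were among the 1% of *Supt6*-KO cells with the most UMIs of row R06163. Their share in the level of row R06231 was therefore nearly complete, and the level describes 3 cells rather than the library.

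Runs of adjacent rows were then sought, where a run is at least 2 consecutive row numbers that pass the size rule in the same direction. The window held 0 higher runs and 0 lower runs. Over the matrix there were 11 higher runs with 31 of 306 higher rows, of at most 5 rows, and 50 lower runs with 115 of 967 lower rows, of at most 8 rows. The rise around row R06163 was therefore not a block of adjacent rows by this rule.

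When rows under 20 CPM in both libraries were skipped, 2 runs appeared, side by side and in opposite directions. Rows R06151, R06153 and R06155 were lower, and the next rows of this level, R06158 and R06163, were higher, after which row R06165 was lower again. In the stretch from row R06151 to row R06165, which was picked after its values were seen, 6 of 15 rows passed the rule. They include row R06163, which defined the window. The rule was passed by 1 row from R06100 to R06150 and by 8 from R06166 to R06250. Over the matrix it was passed by 1273 of all 34099 rows. Runs of this looser kind were frequent in the matrix, with 25 higher runs (20.3% of higher rows) and 142 lower runs (34.8% of lower rows).

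Neighbouring rows tended to move alike over the matrix as a whole. Among 1435 pairs of adjacent rows that both reached 20 CPM, the Pearson correlation of their log2 ratios was 0.334, a description over pairs of genes that come from the same 2 libraries. The window held 11 such pairs, and in 8 both rows moved to the same side of 0. Since 29 of the 44 rows lay below 0 and 15 above, this count says little about the window.

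The levels of single cells showed how differently rows R06158 and R06163 were spread in *Supt6*-KO. Row R06158 was found in all 11829 *Supt6*-KO cells, and in 88.5% (87.8 to 89.1) of control cells. To compare cells at equal depth, each cell was thinned to 2000 UMIs, which left out 569 control cells and 1195 *Supt6*-KO cells that had fewer. At that depth row R06158 was found in 68.9% of control cells and 100% of *Supt6*-KO cells, with medians of 2 and 70 UMIs per cell. The 10th and 90th percentiles were 0 and 10 UMIs in control and 12 and 209 UMIs in *Supt6*-KO, so the ranges between these percentiles did not overlap.

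Row R06163, by contrast, was found in 27.1% of *Supt6*-KO cells and mostly at the lowest possible count. Of the 3203 cells with a UMI, 2240 had 1 and 426 had 2, together 83.2%. At the other end, 67 cells had at least 100 UMIs and held 66.0% of the UMIs of the row. After thinning it was found in 9.41% of *Supt6*-KO cells and 0.0123% of control cells. Its level was thus set by few cells, whereas row R06158 was found in every *Supt6*-KO cell.

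**Figure D3:**
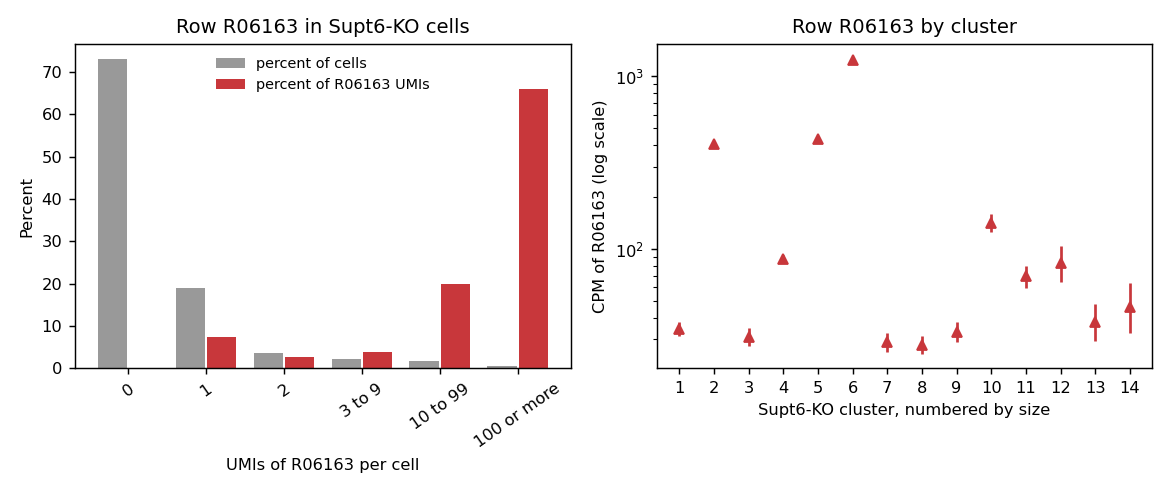
Left, percent of *Supt6*-KO cells (grey) and percent of the UMIs of row R06163 (red) by the number of its UMIs in a cell; right, CPM of row R06163 on a log axis in each *Supt6*-KO cluster of at least 50 cells, with 95% counting intervals. Cells with at least 100 UMIs are 0.566% of cells and hold 66.0% of the UMIs, and cluster 6 is highest at 1245 CPM.

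RNA outside cells can place single UMIs in any droplet. Droplets without cells were not analysed here, and the barcodes with fewer than 500 detected rows, which Cell Ranger had kept as cells and which held medians of 632.5 UMIs in control and 667 in *Supt6*-KO, were read beside the cells as shallow barcodes and not as a measure of that RNA. In the 1142 such *Supt6*-KO barcodes row R06163 had 274 CPM (240 to 313), beside 265 CPM in cells, and its level in them was thus not below that in cells. Row R06158 had 35100 CPM there, below its 57616 CPM in cells but above the median of 28304 CPM over the *Supt6*-KO clusters. In the 368 such control barcodes these rows had 3.95 CPM, from 1 UMI, and 1313 CPM. Of the 17 rows described singly, 15 in control and 16 in *Supt6*-KO had a lower level in these barcodes than in cells, row R06163 being the *Supt6*-KO exception. How much of the share of cells with 1 or 2 UMIs of row R06163, or of the finding of row R06158 in every *Supt6*-KO cell, comes from RNA outside cells was not tested.

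The 118 *Supt6*-KO cells with the most UMIs of row R06163, 1% of the cells, held 23310 of its UMIs, or 76.1%. They had at least 42 UMIs of the row each, with a median of 123, and the highest *Supt6*-KO cell had 1135. In the other cells the level was 64.4 CPM, far above the 0.0480 CPM of control cells. The 118 cells were deeper, with a median of 16715.5 UMIs beside 8574 in the others, and 12 of them (10.2%) were among the 8% of cells with the highest doublet scores. Row R06163 was still at 264 CPM in *Supt6*-KO without those doublet scores.

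Cells were clustered within each library without the window rows, and the clusters were numbered by size and not matched between libraries. Of the 118 cells, 67 lay in *Supt6*-KO cluster 6, 35 in cluster 2, 8 in cluster 5 and 6 in cluster 4. The level of row R06163 ran from 27.8 CPM (24.7 to 31.2) in cluster 8 to 1245 CPM (1226 to 1264) in cluster 6, which held 52.0% of its UMIs with 929 of 11829 cells. At equal depth the share of cells with the row ran from 5.06% to 20.6%, a narrower spread than that of the level. In control the 5 UMIs gave at most 0.348 CPM in a cluster.

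The other rows of the window were then read in the 118 cells, beside the 2122 other cells of clusters 2 and 6, where most of them lay. For these levels row R06163 was left out of the totals. The intervals cover counting error in summed UMIs and leave out the spread between cells. Neither depth nor the mix of clusters was matched between the 118 cells and the others. Row R06158 was at 92355 CPM (91947 to 92765) in the 118 cells and 84936 CPM (84833 to 85040) in the others. Whether this small difference holds at equal depth and within a cluster was not tested. Row R06151 was at 42.4 CPM (34.1 to 52.1) and 80.9 CPM (77.8 to 84.2). Row R06165 was at 13.6 CPM (9.14 to 19.6) and 28.8 CPM (26.9 to 30.8), and row R06248 at 214 CPM (195 to 235) and 316 CPM (309 to 322). In all, 8 of the 10 lower rows were lower in the 118 cells with intervals that did not overlap, as were 0 of the 4 other higher rows and 1 of the 2 rows described singly that did not pass the rule, R06130, at 480 CPM (451 to 510) and 567 CPM (558 to 575). The same held for 23.9% of the 5989 other rows of the matrix at 20 CPM or more and for 25.1% of its 967 lower rows, but abundant rows have narrower intervals and these shares were not matched on level. Row R06199 was at 126 CPM (111 to 142) and 122 CPM (118 to 126), with overlapping intervals.

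Row R06158 varied between clusters in both libraries. In control it ran from 299 CPM in cluster 1 to 5233 CPM in cluster 7, and in *Supt6*-KO from 10329 CPM in cluster 9 to 97310 CPM in cluster 2. The highest control cluster therefore lay below the lowest *Supt6*-KO cluster. Of the 17 rows described singly, this held for 2, rows R06158 and R06163, the latter being the row the window was chosen for, and the cluster ranges of the other 15 overlapped. Over the matrix the ranges did not overlap for 41 of 5990 rows, or 0.684%. Among the 1273 rows of the matrix past the size rule, as most of the 17 are, they did not overlap for 40, or 3.14%.

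**Figure D4:**
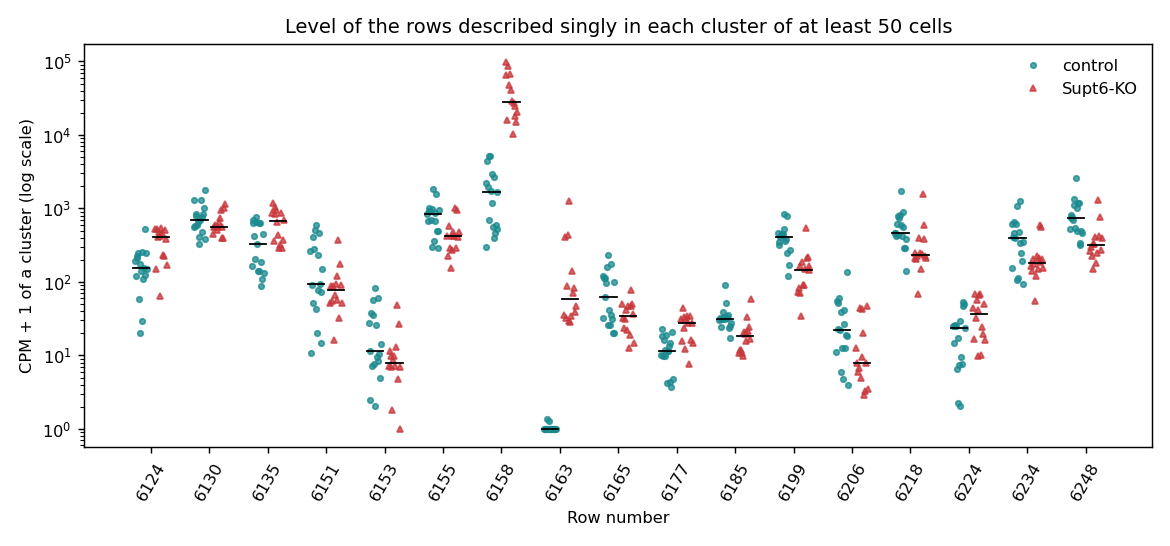
CPM + 1 on a log axis of the 17 rows described singly, in each cluster of at least 50 cells (17 control clusters as circles, 14 *Supt6*-KO clusters as triangles), with the median over clusters as a black line. The clusters of the libraries are apart for row R06158 and for row R06163, which defined the window, and overlap for the other 15 rows. Over the matrix the clusters are apart for 0.684% of the rows at 20 CPM or more and 3.14% of those past the size rule.

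The clusters where the lower rows were highest were then counted. In control, 7 of the 10 lower rows were highest in cluster 9, whose cells had a median of 2766 UMIs, and in *Supt6*-KO 7 of 10 were highest in cluster 10, with a median of 2609 UMIs. Of the other 34 window rows at 20 CPM or more, 3 were highest in control cluster 9 and 5 in *Supt6*-KO cluster 10. Over the matrix these clusters were the highest for 9.77% and 16.5% of the 5990 rows, and for 17.1% and 28.9% of the 967 lower rows. The control count depended on the resolution of the clustering, since at most 3 of the 10 rows shared their highest control cluster at a resolution of 0.4 and 6 at 1.6, whereas in *Supt6*-KO 7 did at both. Row R06218 ran from 139 CPM in control cluster 16 to 1733 CPM in cluster 9, and from 67.7 CPM in *Supt6*-KO cluster 5 to 1584 CPM in cluster 10. Row R06248 ran from 317 to 2577 CPM in control and from 149 to 1321 CPM in *Supt6*-KO, with the same highest clusters. Both clusters were shallow, and the part of depth in these levels was not tested. Because a library level averages over clusters, different numbers of cells per cluster and different levels within a cluster cannot be told apart in the falls of these rows.

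The higher rows R06124, R06177 and R06224 had another distribution in *Supt6*-KO. Row R06124 was lowest in cluster 6 at 63.7 CPM and highest in cluster 8 at 543 CPM, which is the reverse of row R06163. Row R06224 was likewise lowest in cluster 6, at 8.76 CPM, and highest in cluster 3, at 67.8 CPM. Row R06177 ran from 6.70 CPM in cluster 10 to 43.3 CPM in cluster 3. Over the 14 *Supt6*-KO clusters, which share a library, the Pearson correlation of log levels with row R06163 was 0.574 for row R06158, −0.691 for row R06124, −0.605 for row R06224 and −0.523 for row R06177. Over the 10 lower rows it ran from −0.481 for row R06155 to 0.108 for row R06165. For rows R06130 and R06135, which did not pass the rule, it was −0.388 and 0.486.

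Co-detection was measured within each library in cells thinned to 2000 UMIs, for pairs of rows each found in at least 1% of cells. The expected number of cells with both rows was the product of their shares, and pairs with at least 5 expected cells were kept. A pair was called when the observed number was at least 2 times the expected one. In control 4 of 1494 pairs over 58 rows were called, and in *Supt6*-KO 3 of 1419 pairs over 55 rows. The median ratio was 1.00 in control and 1.01 in *Supt6*-KO, and 93.3% and 95.1% of pairs lay within 1.5-fold of expectation. Rows found in most cells cannot move far from a ratio of 1, as for row R06158 in *Supt6*-KO. Of the pairs whose shares allowed a ratio past 1.5-fold both ways, 1272 in control and 1364 in *Supt6*-KO, 92.2% and 94.9% lay within 1.5-fold, and the shares of 1066 and 1159 pairs allowed a ratio of 2.

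A single pair, rows R06151 and R06153, was called in both libraries, of 1247 pairs measured in both. In control 206 cells had both rows where 71.8 were expected, a ratio of 2.87 (2.49 to 3.29). In *Supt6*-KO 63 cells had both where 18.5 were expected, a ratio of 3.40 (2.61 to 4.35). When the expectation was summed over clusters, the ratios were 1.80 and 2.18, so that part of the excess lay in the unequal levels of the clusters. Reads shared between similar neighbouring genes were not examined, because the rows have no sequence here. These rows, 2 places apart, are also 2 of the 3 that formed the lower run when low rows were skipped.

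**Figure D5:**
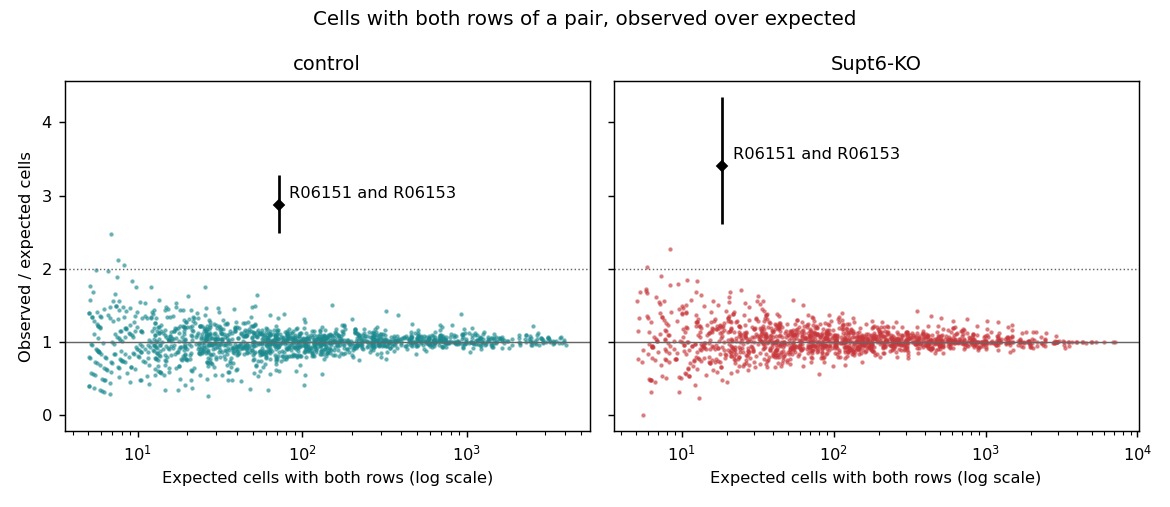
Observed over expected number of cells with both rows, for each pair of window rows with at least 5 expected cells, against the expected number on a log axis, in control (left) and *Supt6*-KO (right), with the dotted line at a ratio of 2. Rows R06151 and R06153 are marked with their 95% counting intervals and lie apart from the other pairs in both libraries, at ratios of 2.87 and 3.40.

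The other pairs with the highest ratios rested on few cells. In control they were rows R06150 and R06191 (17 cells, ratio 2.48), rows R06104 and R06223 (16 cells, 2.11), rows R06177 and R06206 (17 cells, 2.06) and rows R06191 and R06197 (11 cells, 1.98). In *Supt6*-KO they were rows R06108 and R06197 (19 cells, 2.28), rows R06196 and R06206 (12 cells, 2.02), rows R06108 and R06123 (14 cells, 1.90) and rows R06171 and R06206 (20 cells, 1.85). The lower bounds of their intervals ran from 0.987 to 1.44, and with the expectation summed over clusters the ratios ran from 1.09, for rows R06150 and R06191, to 1.96, for rows R06104 and R06223, in control. In *Supt6*-KO they ran from 1.31, for rows R06108 and R06197, to 2.00, for rows R06108 and R06123, whose ratio rose from 1.90.

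The lowest ratios were also counted. In control rows R06150 and R06151, which are adjacent, were found together in 21 cells where 62.1 were expected, a ratio of 0.338 (0.209 to 0.517), and 0.762 when summed over clusters. Rows R06124 and R06214 had a control ratio of 0.263 (0.106 to 0.543), and 0.823 over clusters. These deficits were smaller when clusters were taken into account. Several others among the lowest ratios changed less, or fell. Some rested on 2 cells, with intervals that include 1, such as rows R06150 and R06189 in control (0.296, 0.0358 to 1.07, and 0.309 over clusters) and rows R06123 and R06206 in *Supt6*-KO (0.316, 0.0383 to 1.14, and 0.280 over clusters). Other *Supt6*-KO pairs had intervals below 1 but also few cells. Rows R06153 and R06201 shared 3 cells (0.230, 0.0473 to 0.671, and 0.302 over clusters). Rows R06224 and R06235 shared 3 (0.314, 0.0648 to 0.918, and 0.320 over clusters). Rows R06142 and R06197 shared 5 (0.409, 0.133 to 0.955, and 0.395 over clusters). In *Supt6*-KO rows R06171 and R06191 were found together in 0 cells where 5.54 were expected, a ratio of 0 with an upper bound of 0.666, and 0 over clusters.

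Row R06163 had no called partner in the window. In *Supt6*-KO it was measured with 54 rows, and the ratio was above 1 with 14 of them, with a median of 0.935, or 0.973 summed over clusters. The highest ratio was with row R06112, at 1.56 (1.15 to 2.06), and 1.22 over clusters. It was followed by rows R06153 at 1.23 (0.726 to 1.94), R06196 at 1.22 (0.816 to 1.75), R06199 at 1.20 (1.06 to 1.36) and R06179 at 1.15 (0.876 to 1.48). Over clusters these ratios were 1.07, 1.27, 1.09 and 1.04.

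Since row R06158 was found in every thinned *Supt6*-KO cell, detection could not tie it to row R06163, and its level was compared instead. The 1001 thinned cells with row R06163 had a median of 96 UMIs of row R06158 per 2000 (quartiles 29 and 178), and the 9633 cells without it had a median of 68 (quartiles 21 and 152). The quartiles overlapped widely, and cells without row R06163 were still far above the control median of 2 UMIs.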

How the data were processed

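The authors prepared epidermal cells with the 10x Chromium Single-Cell 3ʹ v3.1 kit and processed reads with Cell Ranger 7.1.0, aligning to GRCm39 with STAR. The deposited values were raw UMI counts per row and barcode, 1 matrix per library, already filtered for cell barcodes. The annotation release was not given in the sources used here, and no sequence is shown because no row was paired with a gene. The window, the lists and the rules were chosen with earlier results of these data known.

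Rows described singly were those past the size rule and the 5 with the highest mean CPM. Intervals at 95% were exact Poisson (CPM), Clopper-Pearson (shares) and conditional binomial (ratios), and cover counting error only. Doublets were kept, since Scrublet marked 1 control cell and 0 *Supt6*-KO cells. Its highest 8% of scores were left out as an alternative. Clusters (scanpy 1.11.5, 2000 variable rows, 30 principal components, 15 neighbours, resolution 0.8) were built without the window rows and carry no cell type names. TMM factors came from edgeR 4.0.16 (R 4.3.3). Python 3.11.15 was used, and scripts were tested on simulated counts.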

Additional observations from a re-analysis of the deposited data

How the results depend on the processing

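No paired analysis was possible because control and *Supt6*-KO had 1 library apiece, so no replicate could be left out either. The counts of window rows past the size rule (5 higher, 10 lower) became 8 and 16 of 63 rows at a minimum of 5 CPM (12.7% and 25.4%, beside 6.27% and 15.2% of the matrix), 3 and 6 of 21 at 100 CPM (14.3% and 28.6%, beside 5.46% and 20.4%), and 2 and 0 of 44 at 4-fold (4.55% and 0%, beside 1.47% and 3.56%). At 1.5-fold they became 10 and 12 (22.7% and 27.3%, beside 11.9% and 34.8%), so the window's share of lower rows was then below that of the matrix. The higher count became 10 with totals without rows of at least 1000 CPM (19.2%, beside 9.73%). Row R06163, which defined the window, was among the higher rows in all these counts. Runs of adjacent rows (0 higher, 0 lower) became 1 and 1 at 5 CPM, 2 and 1 at 1.5-fold, 1 and 1 when rows under the minimum were skipped, and 3 higher with totals without rows of at least 1000 CPM. Called pairs (4 in control, 3 in *Supt6*-KO) became 47 and 38 without thinning and 24 and 33 at a ratio of 1.5, and in control 8 with thinning to 1000 UMIs and 0 with the expectation summed over clusters. That 0 counts pairs with 5 cells expected over clusters. Among the pairs kept by the plain expectation, 1 control pair (rows R06153 and R06191) reached a ratio of 2, at 2.37. No fold of the 17 rows described singly turned its direction under the 7 cell filters and scalings tried. Totals without row R06158 and cells without shared barcodes were added after the data were seen. Depth limits the 107 rows under 20 CPM and the pairs with few expected cells.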
